A study of Mus musculus with 8 samples.

Results

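Cathepsins are the proteases of the lysosome, and cystatins are the small proteins that block them. The members described here were 9 genes chosen by name out of the 33027 genes in the matrix: the cysteine cathepsins Ctsh, Ctsb, Ctsl, Ctsk, Ctss and Ctsz, the aspartic protease Ctsd, and the inhibitors Cst3 (cystatin C) and Cstb (cystatin B). They were picked in part because Ctsh was lower over the AT2 cells of smoke-exposed mice, so values of AT2 cells are given as a description with no test.

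Single cells from mouse lung were sequenced with a 3′ droplet assay in 8 C57BL/6 Sftpc-CreERT2-mTmG mice, 4 exposed to cigarette smoke (CS: mice C2, C5, D2 and D5) and 4 kept in room air (RA: mice F1, F3, M1 and M3). All 8 mice carried a tamoxifen-inducible Cre under the promoter of surfactant protein C, which is active in alveolar type II (AT2) cells, and a reporter that turns from tdTomato to green fluorescent protein where Cre acts. All received tamoxifen at 8 to 10 weeks of age, and exposure began 2 weeks later and ran for 10 months at 6 h per day on 5 days per week. Lung cells were mixed to 10% CD45+ and 90% CD45- cells before loading, so the number of immune cells was set in part by the protocol.

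The libraries held 31882952 to 55485617 counts, with medians of 4296 to 6537 counts per cell, and 40074 cells with a usable label entered the analysis (20330 CS, 19744 RA). Of the cell barcodes, 197 occurred in more than 1 library. The labelled sex went against the data in all 4 CS libraries: the 2 labelled male held Xist in general capillary (gCap) cells and the 2 labelled female held the Y-linked gene Ddx3y. Labelled sex was used nowhere, and whether each CS library carries the name of its own mouse was not tested. AT2 cells had the highest Sftpc, Sftpb and Lamp3 of all types, alveolar macrophages the highest Marco, Chil3 and Ear2, and interstitial macrophages the highest C1qa, C1qb and C1qc.

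Cysteine cathepsins are made as inactive precursors and are activated in the acid lysosome, where they break down proteins taken up or made by the cell. In macrophages and dendritic cells they also cut antigens and the invariant chain, and when released they can degrade elastin and collagen, for which they are known in emphysema. Cystatin C is secreted and inhibits cathepsins outside the cell and along the secretory route, whereas cystatin B stays mainly in the cytosol.

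The genes were dispersed over 7 chromosomes (GRCm38, GENCODE M21). Ctsk (chr3:95499256-95509362) and Ctss (chr3:95526786-95556403) lie on the plus strand with 17423 bases and 0 annotated genes between them. Ctsz (chr2:174427493-174439039) and Cst3 (chr2:148871722-148875692) share a chromosome and the minus strand. Ctsh (chr9:90054152-90076089), Ctsb (chr14:63122462-63145923) and Cstb (chr10:78425669-78427622) are on the plus strand, and Ctsl (chr13:64359337-64370890) and Ctsd (chr7:142375911-142388038) on the minus strand.

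RefSeq promoters (GRCm38.p6, 250 bases before to 50 after the start) matched 6 of the 9 members. They were searched on both strands for the E-box CACGTG, which TFEB and other lysosomal regulators bind, and for the letters GAGGAAGT, a site type of the myeloid and B cell factor PU.1. The E-box occurred in 7.15% of 32851 promoters, and among the members in Ctsl (1 match) and Ctsd (2 matches). The PU.1 letters occurred in 3.2% of promoters and among the members only in Ctss, on the opposite strand, beginning 2 bases before the RefSeq start. These windows follow the starts in RefSeq. For Ctss and Ctsz this is the start given above, whereas the RefSeq start of Ctsk lies 46 bases upstream of the GENCODE start. The RefSeq starts of Ctsd, Cst3 and Ctsl lie 211, 180 and 370 bases downstream of theirs, so that the Ctsl window lies inside the GENCODE gene. The neighbours Ctsk and Ctss are shown over the 50 bases before and 30 bases after their RefSeq starts, because their levels part so clearly below, and the first 60 bases of the Ctsl window are shown for its E-box, which begins 236 bases before the RefSeq start. Capitals mark the matched letters, and a match is a description of the sequence only.
Ctsk (chr3:95499160-95499239, plus strand): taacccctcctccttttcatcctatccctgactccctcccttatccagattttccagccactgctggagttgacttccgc
Ctss (chr3:95526736-95526815, plus strand): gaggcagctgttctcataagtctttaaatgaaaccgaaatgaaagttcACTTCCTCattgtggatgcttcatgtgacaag
Ctsl (chr13:64370711-64370770, minus strand): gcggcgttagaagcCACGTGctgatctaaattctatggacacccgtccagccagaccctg

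A level below is the number of UMI counts per 10,000 counts of a cell, averaged over the cells of a type in 1 mouse, and given as mean ± SD over mice. Levels were compared between cell types within a gene in the 23 types with at least 20 cells in at least 4 mice. The members differed in where they were highest. Ctsh, an aminopeptidase that processes surfactant protein B in AT2 cells, was highest in AT2 cells (10.0 ± 4.7, n = 8) and AT1 cells (9.58 ± 7.5, n = 8), whose ranges overlapped. Classical monocytes followed at 5.62 ± 0.80, ciliated cells at 3.88 ± 0.37 and B cells at 3.10 ± 1.1. Over cells, rare types outside the 23 reached 8.58 in 50 plasmacytoid dendritic cells and 6.90 in 101 interstitial macrophages. The 127 type 2 conventional dendritic cells averaged 6.17, the 40 mature dendritic cells 5.90 and the 66 type 1 conventional dendritic cells 2.67. Within the endothelium, arterial (2.85 ± 1.2) and venous (2.71 ± 1.3) cells held Ctsh, whereas aerocytes averaged 0.0547.

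Ctsb, a broad lysosomal endo- and dipeptidase, was highest in non-classical monocytes (20.8 ± 1.8, n = 7), with no overlap with the next type of the 23, and the 101 interstitial macrophages averaged 20.9 over cells. Alveolar macrophages (11.7 ± 1.8) and classical monocytes (11.5 ± 1.2) came next and overlapped each other. Fibroblasts held 3.88 to 5.31 on average in their 3 types.

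Ctsl, an endopeptidase found in most tissues, was highest in basal cells and in fibroblasts. Basal cells stood at 11.1 ± 0.64 (n = 4 mice), with 11.9, 11.0 and 10.3 in the CS mice C5, D2 and D5 and 11.3 in the RA mouse M1. Adventitial fibroblasts followed at 9.52. AT1 cells (4.45), mesothelial cells (4.26) and lymphatic endothelial cells (4.15) came after the fibroblasts. Alveolar macrophages averaged 3.3, club, ciliated, AT2 and goblet cells 0.712 to 1.18, and NK and cytotoxic T cells 0.241. Among rare types, given as a mean over cells, 50 plasmacytoid dendritic cells stood at 13.1 for Ctsl and 13.8 for Ctsb.

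Ctsk and Ctss were the members with the narrowest patterns. Ctsk, a collagen- and elastin-cleaving enzyme best known from osteoclasts, averaged 7.10 ± 2.6 in alveolar macrophages and 1.30 ± 0.11 in ciliated cells, with no overlap between them, and 0.696 ± 0.26 in adventitial fibroblasts. In the 101 interstitial macrophages Ctsk was near 0 (mean over cells 0.0196). Ctss, which trims the invariant chain in antigen-presenting cells, was highest in alveolar macrophages (25.0 ± 6.2), then in classical (15.3 ± 1.8) and non-classical (12.3 ± 1.3) monocytes, and the ranges of neighbours in this order overlapped. B cells held 3.67 ± 0.45, apart from the types above and below. In AT2 cells Ctss ran from 0.00391 to 0.0897, and interstitial macrophages stood at 22.3 over cells. The macrophages thus divided for these neighbouring genes, both kinds holding Ctss and the alveolar kind alone holding Ctsk at more than 0.141 in any mouse with at least 5 of the cells.

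Ctsz, a carboxypeptidase, followed the myeloid line with 9.15 ± 1.2 in alveolar macrophages, 6.53 ± 1.4 in classical and 4.79 ± 1.0 in non-classical monocytes and 3.39 ± 1.5 in neutrophil granulocytes, each overlapping the next. AT2 cells held 2.18 ± 0.29.

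Of the inhibitors, Cst3 was highest in non-classical monocytes (38.7 ± 7.4, n = 7) and adventitial fibroblasts (36.9 ± 7.0, n = 8), which overlapped, followed by alveolar fibroblasts at 27.6 ± 3.9. Over cells it reached 240 in 66 type 1 conventional dendritic cells and 145 in 40 mature dendritic cells, against 44.2 in interstitial macrophages. Alveolar macrophages, where Ctss and Ctsz peaked, averaged 6.6 for Cst3. Cstb was highest in neutrophil granulocytes (7.58 ± 1.5) and alveolar macrophages (7.31 ± 1.2), which overlapped, and then in classical monocytes at 4.49 ± 0.60.

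**Figure D1:**
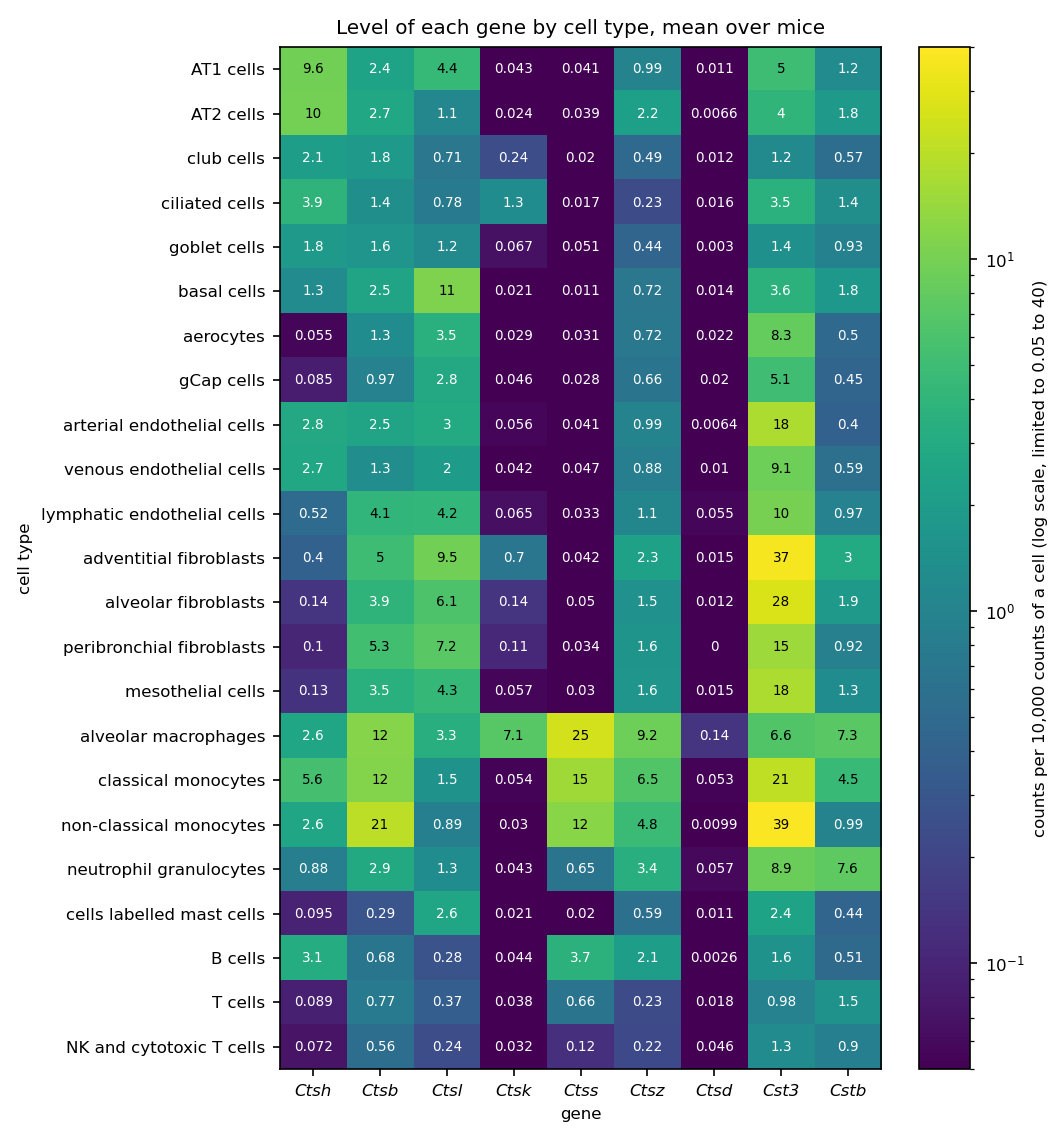
Levels of the 9 genes (columns) in 23 cell types (rows), as counts per 10,000 counts of a cell averaged over the mice with at least 20 cells, with the mean printed in each box and colour on a log scale. Colours are to be read down a column, since counts of different genes are not corrected for length, and Ctsd lies at or below 0.14 in every type.

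Ctsd, the main aspartic protease of the lysosome, was near 0 throughout. Its highest mean was 0.138 ± 0.089 in alveolar macrophages, where the CS mice C2, C5, D2 and D5 had 0.0766, 0.220, 0.116 and 0.298 and the RA mice F1, F3, M1 and M3 had 0.0481, 0.166, 0.144 and 0.0357. It passed the filter on low values in 0 of the 22 tested types, so no difference was tested. In GENCODE M21 the gene Gm49369 runs on the same strand over 55.7% of the span of Ctsd, including all of its last 500 bases, where 3′ reads fall, and shares 34.4% of its exonic bases. The study counted unspliced as well as spliced reads with the later M22 annotation. The part of this overlap in the near-absence of Ctsd was not tested, and its level is uncertain. Other overlaps were smaller: Gm49230 shared 6.09% of the exonic bases of Ctsl on the same strand, and Gm47123 (Ctsl), Fdft1 (Ctsb) and Nelfcd (Ctsz) overlapped on the opposite strand.

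The genes whose level over the 23 types was most like a member's were found among 6917 genes by Pearson's correlation of log2 levels, as a description without a test, since all types come from the same 8 libraries. Ctss was followed closely by Cybb (r = 0.99), Rassf4 (0.97) and Sh3bp2 (0.95). Ctsk was nearest to Rnf180 (0.94), Plet1 (0.93) and Krt79 (0.91). Ctsz was nearest to the lysosomal hexosaminidase gene Hexa (0.92), Cd68 (0.87) and Mpeg1 (0.86). For Ctsb they were Sowahc (0.84), the member Ctsz (0.82) and the saposin precursor Psap (0.82), and for Cstb the predicted gene Gm6977 (0.86), the proton pump subunit Atp6v0c (0.85) and ferritin heavy chain Fth1 (0.84). Ctsl (Ilk 0.82, Fkbp9 0.82, Kdelr1 0.81) and Cst3 (Sqor 0.79, Apba1 0.79, Ifitm3 0.78) had looser neighbours. Ctsh was the least matched, with Bri3 at 0.73, Mrpl14 at 0.70 and Acsl5 at 0.69.

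The question of the design was how these levels differ between smoke and room air. Mean levels per mouse were compared on the scale log2(level + 1) with limma within each cell type, for genes seen in no fewer than 10% of cells in CS or in RA mice, and differences below are CS minus RA on that scale, which understates changes of low genes. Outside AT2 cells, 8 members gave 131 pairs of a gene and a cell type in 21 types. Of these, 1 had an adjusted p under 0.05 (limma, Benjamini-Hochberg), against 1.3% of all 163230 pairs of a gene and a type. An unadjusted p under 0.05 was found in 14.5% of the members' pairs and in 15.7% of all pairs, so the share of the members was near the background. The levels of all CS mice lay above those of all RA mice in 7 pairs and below in 10, together 13.0%, against 6.2% above and 4.81% below of all pairs, together 11%. Both occurred, in different types, for 3 of the 8 members (Ctsl, Ctss and Ctsz) and for 8.96% of the 9692 genes tested in at least 6 types. The difference was below 0 in 89 of the 131 pairs (median -0.059), whereas 45.7% of all pairs lay below 0 (median 0.0094). Ctsh, picked for its lower level in AT2 cells, gave 15 of the 89. The pairs share the same 8 mice and are not separate observations. With no filter the difference was below 0 in 116 of 188 pairs, with a median of -0.020.

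**Figure D2:**
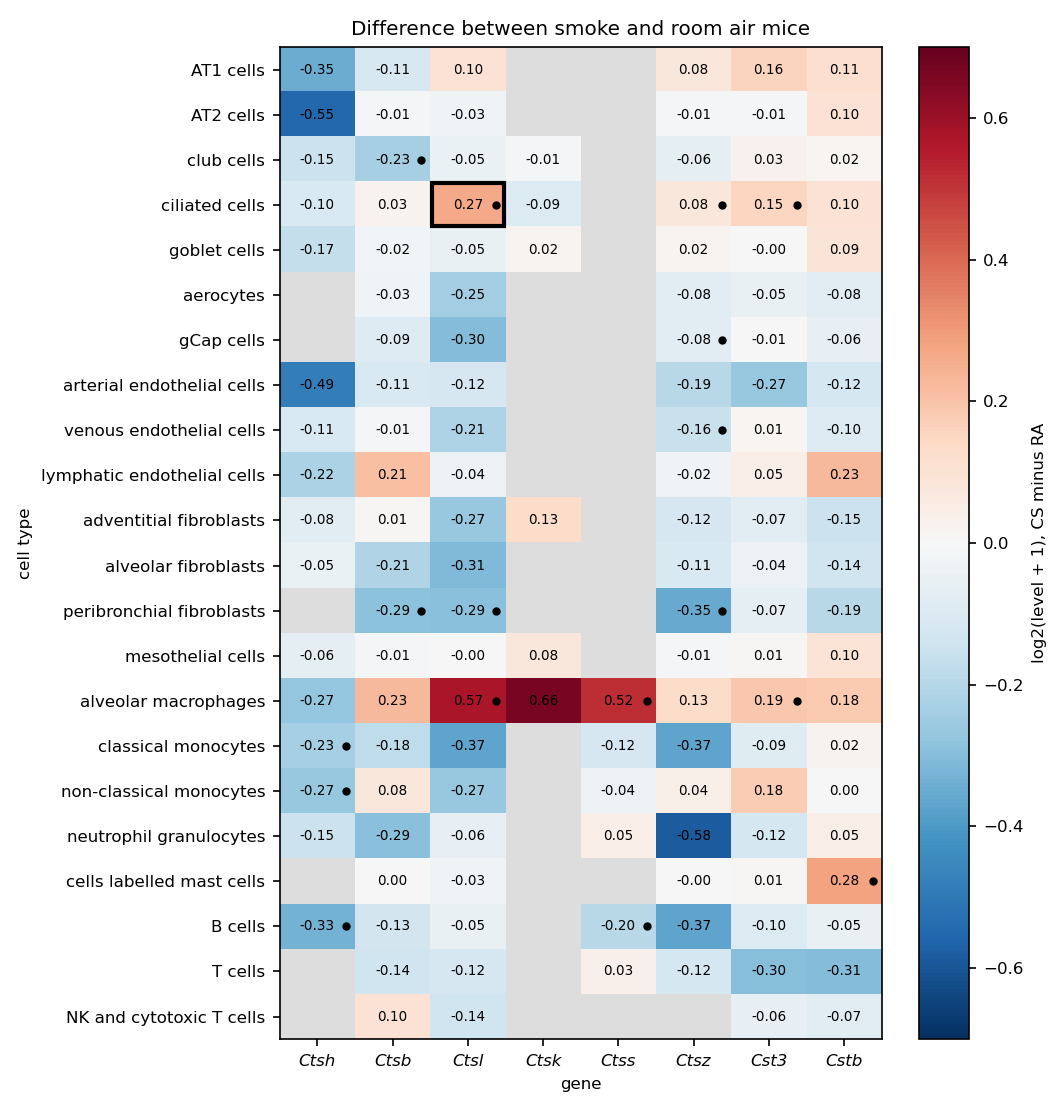
Differences between CS and RA mice on the log2(level + 1) scale for 8 members (columns) in 22 cell types (rows), red where CS was higher and blue where it was lower. Grey boxes did not pass the filter, dots mark groups of mice that did not overlap, and the frame marks the 1 pair with an adjusted p under 0.05, Ctsl in ciliated cells. AT2 cells are shown as a description.

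In AT2 cells the CS mice C2, C5, D2 and D5 had Ctsh levels of 7.71, 7.41, 7.15 and 8.17, and the RA mice F1, F3, M1 and M3 had 21.2, 9.16, 8.07 and 11.3. The CS mice lay close together and the RA mice were wide apart, with F1 far above the rest and M1 just below the highest CS mouse, so the groups overlapped. Means were 7.61 ± 0.44 in CS and 12.4 ± 6.0 in RA (n = 4 each), a difference of -0.55, which moved to -0.28 without F1. Over cells, 705 AT2 cells of CS mice averaged 7.55 and 1176 of RA mice 12.5, a ratio of 0.603, and F1 gave 335 of the RA cells. Ctsh was found in 97.6% of the CS and 98.3% of the RA AT2 cells (median depths of 10838 and 12169 counts), and in 2.85% of aerocytes at a median of 4623. Cells with more than 2 summed counts of endothelial markers made up 60.9% of the AT2 cells of F1 and 25.4% to 47.3% of those of the other mice. Without such cells the difference was -0.57, and the part of endothelial RNA in it was not tested.

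F1 was also high for Ctsh in AT1 and B cells. In AT1 cells it had 27.9, against 6.83, 4.60 and 8.37 in F3, M1 and M3 and 7.76, 7.01, 6.27 and 7.89 in C2, C5, D2 and D5. The difference in AT1 cells was -0.35 (SE 0.337, adjusted p = 0.633, limma) and turned to 0.14 without F1. In B cells, too, F1 stood highest at 5.81, with 3.19, 2.77 and 2.76 in the other RA mice and 2.37 to 2.7 in the CS mice. This did not hold in every type. F1 was the lowest of the 8 mice in goblet cells (1.14) and in venous endothelial cells (0.709), and the lowest RA mouse in alveolar macrophages (2.43) and neutrophil granulocytes (0.742).

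**Figure D3:**
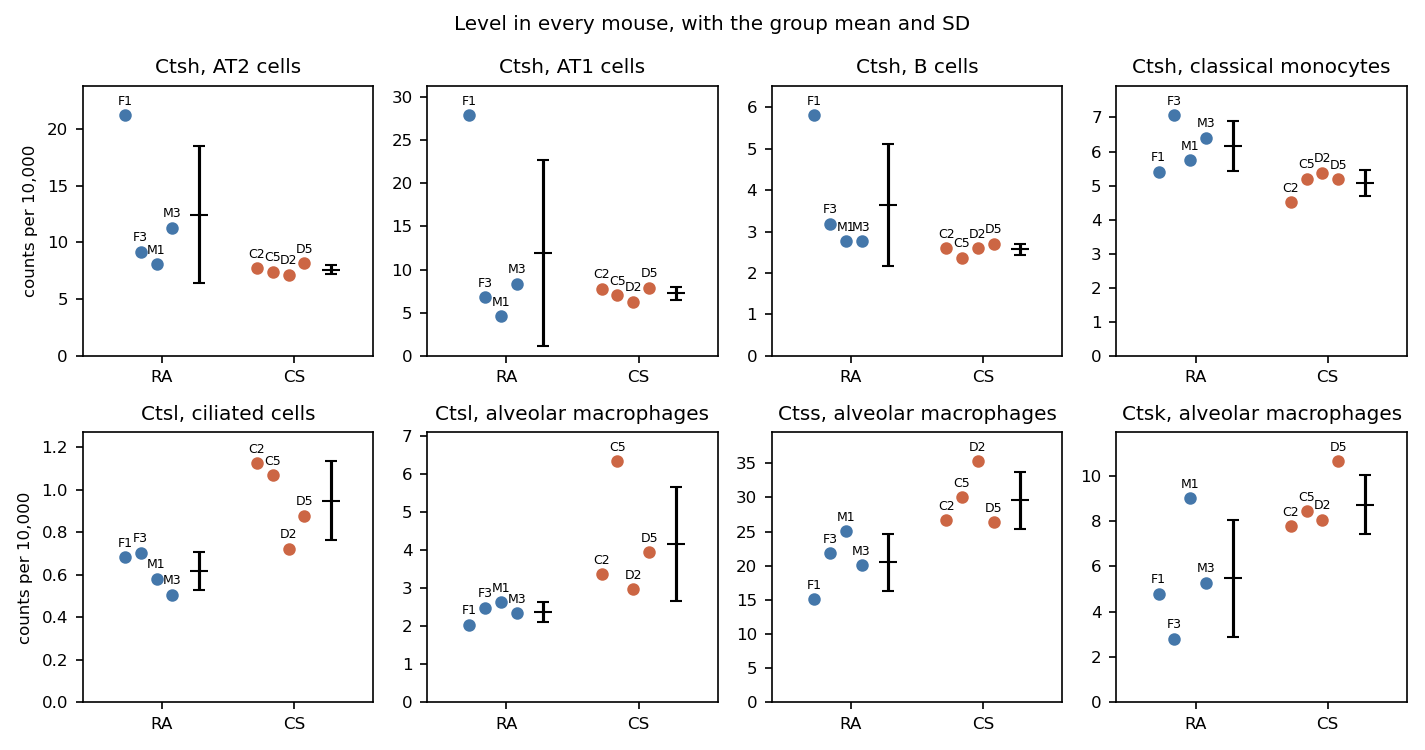
Levels in every mouse for Ctsh in 4 cell types (top) and for Ctsl, Ctss and Ctsk (bottom), as counts per 10,000 with axes from 0. Coloured points are mice (blue RA, orange CS), and black bars give the group mean ± SD. F1 stands apart for Ctsh in AT2, AT1 and B cells, and the CS mice lie above all RA mice for Ctsl in ciliated cells and for Ctsl and Ctss in alveolar macrophages.

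Ctsh passed the filter in 15 further types, and its difference was below 0 in 15 of 15, with a median of -0.17 and a range of -0.49 to -0.048. In 1 of the 15, alveolar fibroblasts, it passed through the RA mice alone (6.58% of CS and 11.3% of RA cells). With no filter, the difference was below 0 in 19 of 21 types (median -0.11), the exceptions being peribronchial fibroblasts (0.064) and NK and cytotoxic T cells (0.095). Both had Ctsh levels near 0 (0.103 and 0.0715). The types added below 0 were as low, with 0.0547 in aerocytes, 0.0845 in gCap cells, 0.0889 in T cells and 0.0954 in the cells labelled mast cells. Of the 5719 genes tested in at least 15 types outside AT2 cells, 1.35% lay below 0 in all of them. The types share the same 8 mice, and Ctsh, unlike those genes, was picked for its lower level in AT2 cells of these mice. The 1.35% is therefore no measure of how rare the count for Ctsh is. The count changed with the mice used, to 13 of 14 without F1, 13 of 15 without F3, 14 of 15 without C2 and 14 of 15 without M1, and to 14 of 15 with summed counts. None of the 15 differences had an adjusted p under 0.05 (limma), and 1 had an unadjusted p under 0.05, arterial endothelial cells at -0.49 (SE 0.170, adjusted p = 0.197). Endothelial markers, summed over 5 genes, were lower in the same cells, at 67.4 to 78.9 in CS and 83.8 to 85.9 in RA (exact permutation p = 0.0286), and their part in the difference was not tested. The groups did not overlap, with CS lower, in B cells, classical monocytes and non-classical monocytes, where 3.62%, 2.37% and 2.86% of all genes did so. In classical monocytes the CS mice had 4.51, 5.20, 5.38 and 5.18 and the RA mice 5.41, 7.08, 5.75 and 6.40, a difference of -0.23 (SE 0.114, adjusted p = 0.505). AT2 markers in B cells, at 1.92 to 3.80 summed over 5 genes in CS and 0.518 to 1.52 in RA (exact permutation test, two-sided, p = 0.0286, the smallest 4 against 4 mice allow), ran the other way from Ctsh there. Lymphocyte markers, summed over 4 genes, were on average lower with it, at 25.2 to 33.7 in CS and 30.6 to 37.9 in RA (exact permutation p = 0.0571), and the part of either in the difference was not tested.

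For the other members in AT2 cells the groups lay close. Ctsb had 2.83, 2.62, 2.69 and 2.55 in C2, C5, D2 and D5 and 3.05, 2.65, 2.79 and 2.38 in F1, F3, M1 and M3. Ctsz had 2.25, 2.13, 2.40 and 1.87 in CS and 2.75, 1.97, 2.13 and 1.92 in RA. Ctsl had 0.936, 1.097, 1.08 and 1.21 in CS and 1.23, 1.30, 1.02 and 0.944 in RA. All 3 overlapped, with differences of -0.015, -0.010 and -0.028 in this order. Cst3 had 3.86, 3.85, 4.10 and 3.93 in CS and 3.69, 4.07, 4.19 and 3.92 in RA, and Cstb 2.15, 1.88, 1.73 and 1.78 in CS and 2.02, 1.34, 1.61 and 1.81 in RA. The inhibitors overlapped as well (-0.0082 and 0.10). Ctsk, Ctss and Ctsd did not pass the filter, with 0.00902 to 0.0344, 0.00391 to 0.0897 and 0 to 0.0157 over the 8 mice.

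The 1 member to rise past the threshold was Ctsl in ciliated cells. The CS mice C2, C5, D2 and D5 had 1.13, 1.07, 0.724 and 0.878, and the RA mice F1, F3, M1 and M3 had 0.682, 0.704, 0.582 and 0.507, so every CS mouse lay above every RA mouse, D2 only just. The means of 0.950 ± 0.18 and 0.619 ± 0.091 differ 1.53-fold, and the difference was 0.27 (SE 0.0665, adjusted p = 0.0495, limma). Each lane given in the labels held 1 mouse of each group, and with the lane as a block the adjusted p was 0.0765 (limma). In ciliated cells 4.63% of 11077 genes passed the threshold, 2.72% with CS higher. The call was also lost without any 1 of 7 of the 8 mice, the exception being D2 (adjusted p 0.0638 to 0.128 in those 7, and 0.0271 without D2). Summed over 9, genes listed as a response to tissue digestion ran from 46.3 to 92.1 in the CS and from 83.2 to 121 in the RA ciliated cells (exact permutation p = 0.0571). Whether digestion set the level of these digestion-response genes, and their part in the result, was not tested.

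Ctsz and Cst3 were also above all RA mice in ciliated cells without passing the threshold, where 9.28% of genes did not overlap with CS higher. Cst3 had 3.66, 3.52, 4.00 and 3.88 in CS and 2.95, 3.49, 3.42 and 3.30 in RA, a difference of 0.15 (SE 0.0650, adjusted p = 0.185). Ctsz was low, at 0.223 to 0.327 in CS and 0.164 to 0.212 in RA (0.081, SE 0.0267, adjusted p = 0.104). Ctsk went the other way, from 1.16 to 1.30 in CS and 1.30 to 1.52 in RA (-0.093, adjusted p = 0.226), with a slight overlap.

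In alveolar macrophages, which had 31 to 112 cells per mouse, 7 of the 8 measurable members had a difference above 0, as had 3714 of all 7554 genes. The members were measured in the same mice. Of the 8 members, 0 passed the threshold (limma), against 0.53% of the 7554 genes. At an unadjusted p under 0.05 there were 3, Ctsk, Ctsl and Ctss, where the background was 10%. Ctss had 26.6, 29.996, 35.3 and 26.4 in C2, C5, D2 and D5 and 15.1, 21.9, 25.1 and 20.1 in F1, F3, M1 and M3. The groups did not overlap, and the difference was 0.52 (SE 0.172, adjusted p = 0.242). Ctsl had 3.38, 6.34, 2.98 and 3.95 in CS and 2.04, 2.49, 2.63 and 2.35 in RA, with C5 well above the rest. Here too there was no overlap (0.57, SE 0.174, adjusted p = 0.173).

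Ctsk, highest in these macrophages of all types, had 7.78, 8.43, 8.07 and 10.6 in CS and 4.79, 2.82, 9.01 and 5.27 in RA. Of the RA mice, M1 lay among the CS mice and the other three well below them. The difference was 0.66 (SE 0.219, adjusted p = 0.242), and it was 0.90 with an adjusted p of 0.0348 when M1, the mouse with the fewest alveolar macrophages, was left out. It was 0.44 (adjusted p = 0.510) without F3 and 0.38 (adjusted p = 0.585) with summed counts, which also lowered that of Ctsl to 0.27 (adjusted p = 0.648, limma in each). The exact permutation test over all 8 mice gave p = 0.114.

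Cst3, the secreted inhibitor, lay above all RA mice by a small margin, with 7.33, 6.69, 7.56 and 6.61 against 5.29, 6.43, 6.19 and 6.38 (0.19, SE 0.148, adjusted p = 0.714). Ctsl, Ctss and Cst3 made 3 of 8 members with no overlap and CS higher, where 2.69% of genes did so. Ctsb had 9.95, 13.4, 14.5 and 13.4 in CS and 10.8, 10.6, 11.5 and 9.88 in RA. Ctsz had 8.72, 12.1, 8.74 and 9.01 in CS and 8.37, 8.15, 9.45 and 8.70 in RA. For Cstb the values were 6.69, 9.78, 7.35 and 7.56 in CS and 7.16, 5.68, 7.87 and 6.41 in RA. These 3 overlapped, with C5 highest for Ctsz and Cstb, as did Ctsh (3.67, 1.55, 1.72 and 2.12 in CS, 2.43, 2.96, 3.04 and 2.91 in RA), the 1 member with a difference below 0 (-0.27, adjusted p = 0.633). Without C2 this was -0.46 and without C5 it was -0.17.

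Markers of another cell type moved with the exposure in alveolar macrophages. Endothelial markers, summed over 5 genes that were all higher in CS, ran from 4.18 to 6.79 in CS and from 1.15 to 3.86 in RA (exact permutation p = 0.0286). AT2 markers reached 22.3 in 1 CS mouse and 5.39 at most in RA. In the capillary endothelium and in AT2 cells Ctss and Ctsk averaged below 0.05 per 10,000, and in the capillaries Ctsl averaged 2.8 to 3.5. The part of these cells' RNA in the differences above was not tested. Too few interstitial macrophages were caught for a comparison, with 3 to 29 cells per mouse. In the mice with at least 5 of them, Ctss ran from 15.1 to 47.4, Ctsb from 14.7 to 27.3, Ctsz from 5.86 to 13.0, Ctsh from 4.85 to 11.5, Cst3 from 21.7 to 54.7, Cstb from 2.29 to 6.67, Ctsl from 1.05 to 5.79, Ctsk from 0 to 0.141 and Ctsd from 0 to 0.0928.

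**Figure D4:**
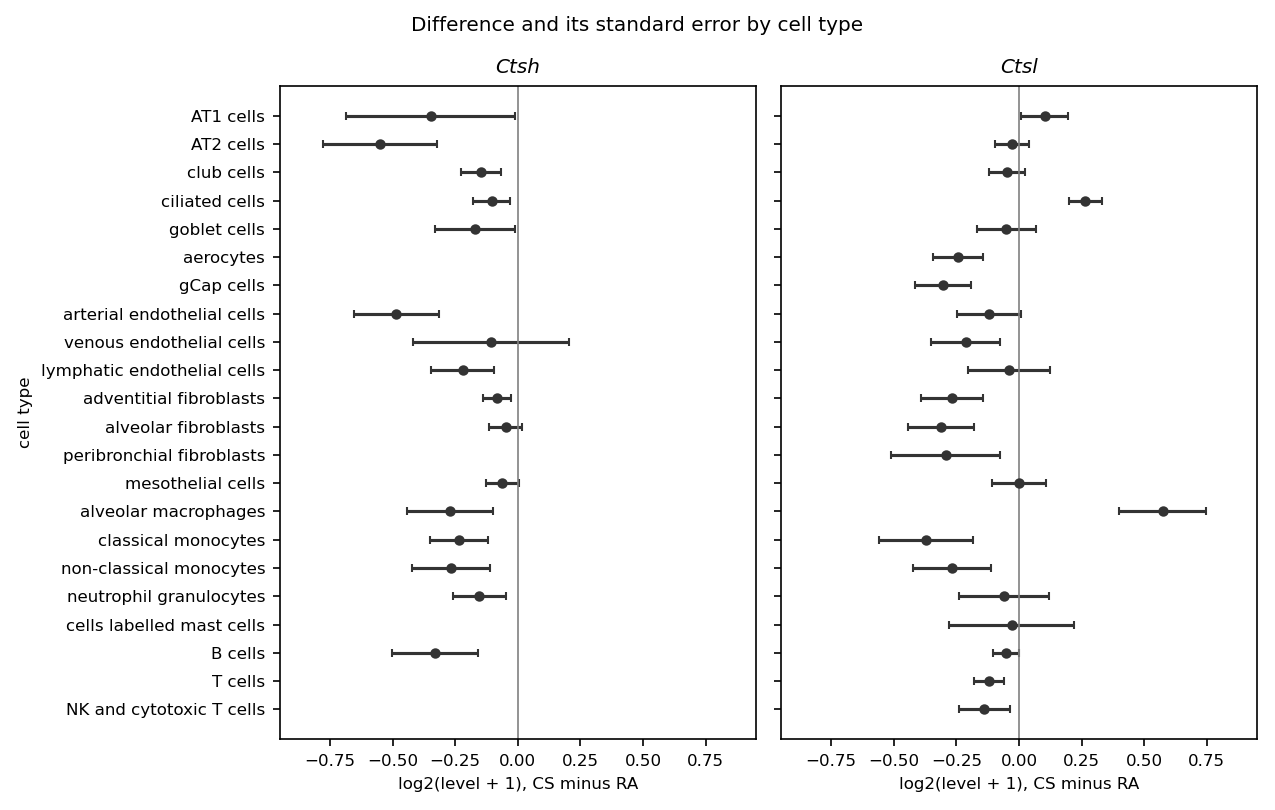
Difference between CS and RA mice on the log2(level + 1) scale (points) with its standard error (bars) for Ctsh and Ctsl by cell type. Points for Ctsh lie below 0 in the 15 types outside AT2 cells in which it passed the filter. Those for Ctsl lie below 0 in 18 of 21 types outside AT2 cells, and above it in ciliated cells (0.27), alveolar macrophages (0.57) and AT1 cells (0.10). AT2 cells are shown as a description, since the members were picked in part from them.

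Ctsl was lower in CS in 18 of 21 types, but in 13 of 20 without F3 and in 15 of 21 without D5. Of the 18 differences, 0 passed the threshold (limma). An unadjusted p under 0.05 was found in 4 of the 18 (limma) and in 15.7% of all pairs. The 3 fibroblast types had differences of -0.27 (adventitial, SE 0.123, adjusted p = 0.220), -0.31 (alveolar, SE 0.133, adjusted p = 0.192) and -0.29 (peribronchial, SE 0.218, adjusted p = 0.724). Peribronchial fibroblasts, with 3 mice in each group, did not overlap, where 6.87% of genes did so with CS lower. AT2 markers, summed over 5 genes, lay the same way there without overlap, at 0.138 to 0.547 in CS and 1.11 to 5.395 in RA (exact permutation p = 0.1, the smallest 3 against 3 mice allow), and their part was not tested. Digestion-response genes in adventitial fibroblasts ran from 104 to 122 in CS and from 118 to 141 in RA (exact permutation p = 0.0571), and their part was not tested. In gCap cells the CS mice had 2.43, 2.78, 2.03 and 2.38 and the RA mice 4.08, 3.08, 2.60 and 3.13, with C5 above M1. This difference of -0.30 (SE 0.111, adjusted p = 0.0893) came closest to the threshold among the members' differences below 0, in a type in which 10.3% of genes passed it. Digestion-response genes were again lower in CS in gCap cells (40.8 to 68.3 against 76.6 to 114, exact permutation p = 0.0286), and their part was not tested.

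Ctsz was lower in CS in 15 of 20 types and Ctsb in 14 of 21, with 0 calls for either (limma). An unadjusted p under 0.05 was found in 4 of 20 pairs of Ctsz, 2 of 21 of Ctsb and 15.7% of all pairs (limma). Without F3 Ctsz was lower in 12 of 20 types, and without M1 in 18 of 21. Ctsb was lower in 11 of 21 with summed counts or without D5, and in 16 of 21 without C5. Ctsz was most different in neutrophil granulocytes, with 1.32, 3.22, 2.62 and 2.83 in CS and 6.64, 3.79, 3.59 and 3.07 in RA, and C5 above M3 (-0.58, SE 0.212, adjusted p = 0.276). It was -0.39 without F1 and -0.40 without C2. Macrophage markers, summed over 10 genes, were also highest in the neutrophils of F1, at 141 against 39.8 to 59.4 in the other mice. In F1 89.0 of this came from Chil3, which ran from 0 to 1.81 in the other mice, and 0.0434 from Marco. Most of the rest was Ccl6 (27.5) and Fcer1g (24.0), each at 17.0 or more in every mouse. The part of these markers in the difference was not tested. Ctsb was lower without overlap in club cells, with 1.36, 1.76, 1.63 and 1.59 in CS and 2.47, 1.83, 1.95 and 1.91 in RA (-0.23, SE 0.0882, adjusted p = 0.400), in a type in which 2.06% of genes lay so. In non-classical monocytes, its highest type of the 23, Ctsb had 22.1, 23.0, 21.7 and 18.3 in CS and 20.9, 20.8 and 18.5 in the 3 RA mice with enough cells (0.077, adjusted p = 0.930, and 0.023 to 0.14 without 1 mouse). Ctss outside the alveolar macrophages differed most in B cells, which present antigen. There the CS mice had 3.38, 3.53, 3.29 and 3.20 and the RA mice 4.28, 4.43, 3.60 and 3.68, without overlap (-0.20, SE 0.0994, adjusted p = 0.403), as for 3.62% of genes in B cells with CS lower. The shifts of AT2 and lymphocyte markers given above for B cells stand beside this difference too, and their part was not tested.

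The inhibitors showed no common direction. Cst3 was higher in CS in 9 and lower in 12 of 21 types, and Cstb higher in 11 and lower in 10. In non-classical monocytes Cst3 had 42.8, 38.7, 48.8 and 32.3 in CS and 45.6, 29.2 and 33.4 in RA (0.18, adjusted p = 0.860), and the difference ran from 0.041 without M1 to 0.35 without F3. In neutrophil granulocytes Cstb had 7.15, 7.06, 9.64 and 6.87 in CS and 7.0, 6.20, 10.3 and 6.47 in RA, with D2 and M1 high in their groups (0.046, adjusted p = 0.944). The lowest unadjusted p of either inhibitor, 0.00345 (limma), was that of Cstb in the cells labelled mast cells. It had 0.476 to 0.688 in CS and 0.215 to 0.344 in the 3 RA mice (0.28, SE 0.0770, adjusted p = 0.536). Neutrophil markers there, summed over 3 genes, ran from 0.0834 to 10.7 in CS and from 0.0850 to 0.303 in RA (exact permutation p = 0.4). AT2 and endothelial markers averaged 4.03 and 4.97 in CS and 1.15 and 3.52 in RA, and the part of these markers was not tested.

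Few other genes of the pathway passed the test. Of 16 further cathepsins listed, 7 were in the matrix, and 0 of their 73 pairs of a gene and a type passed the threshold (limma; 9 had an unadjusted p under 0.05, median difference 0.0022). Among them Ctsc, which activates granule proteases, was highest in AT2 cells (9.70), as Ctsh was, and Ctsw was highest in NK and cytotoxic T cells (4.98). Of 20 further cystatins and related inhibitors, 17 were found and 0 of 29 pairs passed (6 with an unadjusted p under 0.05, median -0.044). Among all pairs outside AT2 cells, 15.7% had an unadjusted p under 0.05 (limma). Stfa2l1, a stefin like Cstb, reached 5.79 in neutrophil granulocytes. Of 806 pairs of 50 genes of lysosomal enzymes and sorting, 6 passed, 5 higher and 1 lower in CS (median 0.0047), which is below the 1.3% of all pairs.

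The 6 pairs involved 5 genes. In adventitial fibroblasts the transcription factor gene Mitf rose by 0.39 (SE 0.0676, adjusted p = 0.0203) and the sorting receptor gene Sort1 by 0.27 (SE 0.0647, adjusted p = 0.0453), while the dipeptidyl peptidase gene Dpp7 fell by 0.23 (SE 0.0564, adjusted p = 0.0468). Dpp7 rose in ciliated cells by 0.047 from a mean level of 0.0333 to 0.0679 (adjusted p = 0.0428). The sulfatase gene Sgsh rose in aerocytes by 0.17 (adjusted p = 0.0435) and the galactosidase gene Glb1 in gCap cells by 0.12 (adjusted p = 0.0487). The sums of digestion-response genes given above for adventitial fibroblasts, ciliated cells and gCap cells stand beside these calls too, and their part was not tested. With the lane as a block, 0 of the 6 passed the threshold (adjusted p 0.0631 to 0.120).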

How the data were processed

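Single-cell libraries (Chromium 3′ v3) of 8 mice were read by the authors with STAR 2.7.3a (STARsolo) against GRCm38.p6, corrected for free RNA and filtered. The deposited matrix, named normalized, holds these corrected, estimated counts, 1.28% of them whole within 1e-06. Cell types are the deposited ones, and 1025 multiplets and 7 cell cycle cells were left out. Each cell was scaled to 10,000 and averaged per mouse and type. limma 3.58.1 (trend, pseudocount 1) compared groups where at least 3 mice per group had 20 cells, in 22 types, for genes in 10% of cells of CS or RA mice, adjusting p by Benjamini-Hochberg in each type at a threshold of 0.05. Exact permutation tests are two-sided over mice. The 4 mice of a group are separate animals.

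The members and lists were chosen with earlier results of these data known. All 9 members are named, with values per mouse where limma called them, in AT2 cells and alveolar macrophages, and in the highest type. Members below the filter in AT2 cells, and all members in the few interstitial macrophages, are given as ranges over mice. Other pairs, such as those without overlap, were singled out after their values were seen. From other lists, called genes and the same enzyme class are named, and from each member's likeness its 3 nearest genes.

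Lanes pair the mice by the labels, 1 CS and 1 RA mouse in each of 4. Over 68 lane pairs in 17 types the correlation of deviations ran from -0.270 to 0.392 (median -0.0154, 10 above 0.1). For D5 and M3, the pair of lane 4, it ran from -0.110 in alveolar fibroblasts to 0.392 in gCap cells, and was 0.297 in ciliated cells. Alternatives were another pseudocount, summed counts, median scaling, other filters, the lane block, cells without markers of other types and leaving out each mouse. Counting intervals were not formed, since the deposited values are not raw counts.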

Additional observations from a re-analysis of the deposited data

Results flagged for a closer look

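Among the groups of 4 mice of all tested pairs of a member and a cell type, 18 of 241 held a mouse far from the other three, and chance alone sets 1 in 20 such groups apart. The RA mouse F1 was the mouse in 7 of the 18. It was high for Ctsh in AT1 cells (27.9 counts per 10,000, the unit of each level below) and B cells (5.81), Ctsb in mesothelial cells (3.97, others 3.36 to 3.41) and T cells (1.23, others 0.709 to 0.739) and Cstb in aerocytes (0.772, others 0.455 to 0.474), and low for Ctsh in neutrophil granulocytes (0.742, others 1.04 to 1.1) and Cstb in goblet cells (0.409, others 1.02 to 1.07). Of the other RA mice, F3 was high for Ctsz in goblet cells (0.753) and M3 low for Ctsz in alveolar fibroblasts (1.25).

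The CS mouse C2 was low for Ctsb in B cells (0.4999, others 0.627 to 0.643) and for Cstb in gCap cells (0.348, others 0.437 to 0.446) and adventitial fibroblasts (1.96, others 2.99 to 3.09). D5 was low for Ctsz in arterial endothelial cells (0.698) and high for it in the cells labelled mast cells (0.802), where D2 was high for Ctsl (5.20, others 1.62 to 2.13). C5 was high for Cst3 in arterial endothelial cells (16.4, others 15.3 to 15.5). Ctsz in alveolar macrophages stood at 12.1 in the CS mouse C5, with the other CS mice at 8.72 to 9.01. Cstb in neutrophil granulocytes stood at 9.64 in the CS mouse D2, with the others at 6.87 to 7.15.

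For 3 of the 8 measurable members all CS mice lay on one side of the RA mice in one cell type and on the other side in another, as for 8.96% of the 9692 genes tested in at least 6 types, and the difference between types was not tested. Ctsl was higher in ciliated cells (0.27 on the log2 scale) and alveolar macrophages (0.57), and lower in peribronchial fibroblasts (-0.29). Ctss was higher in alveolar macrophages (0.52) and lower in B cells (-0.20). Ctsz was higher in ciliated cells (0.081) and lower in gCap cells (-0.081), venous endothelial cells (-0.16) and peribronchial fibroblasts (-0.35). Of all pairs of a gene and a type, 6.2% lay without overlap with CS higher and 4.81% with CS lower. The shares were 9.28% higher in ciliated cells, 2.69% higher in alveolar macrophages, 3.62% lower in B cells and 6.87% lower in peribronchial fibroblasts. In gCap cells 10.3% of genes passed the adjusted threshold. Digestion-response genes were lower in CS in gCap and venous endothelial cells (exact permutation p = 0.0286 in each), AT2 markers were lower in CS in peribronchial fibroblasts and higher in B cells, and their part was not tested.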

How the results depend on the processing

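The difference of Ctsl in ciliated cells (0.27) kept its direction under all 17 alternatives. It lost the call with median scaling (0.26, limma adjusted p = 0.0538), the lane as replicate block (0.27, adjusted p = 0.0765), a filter at 1% of cells (0.27, adjusted p = 0.0805), no filter (0.27, adjusted p = 0.174) and without cells holding macrophage markers (0.10, adjusted p = 0.883). The last left 11.2% of the ciliated cells, since Plet1, a gene of that list, averaged 4.68 in them. A list of 6 macrophage genes without Plet1, chosen after seeing the data, left 99.9% of them and gave 0.26 (limma adjusted p = 0.0491). Without a mouse the value ran from 0.22 to 0.32. The number of members' pairs called was 0 under median scaling, the lane block, the first marker filter and both gene filters, and 0 to 1 without a mouse. The 6 calls of other lysosomal genes became 0 with the block, 3 with the filter at 1% of cells and 0 with no filter, and 1 to 4 without a mouse.

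Of 194 values for 12 pairs of a member and a type, 178 kept direction and side of the threshold. This tally is no measure of stability, since part of it was fixed in advance. The marker filters left 100% of the alveolar macrophages, non-classical monocytes and neutrophil granulocytes, so they repeated the main value there. Only Ctsl in ciliated cells had a call to lose, and it was lost in 12 of 17 alternatives. Ctsk in alveolar macrophages passed the threshold without M1 (0.90). Cstb in neutrophil granulocytes ran from -0.056 to 0.19 without a mouse and turned without D2 (-0.056), F3 (-0.025) or M3 (-0.0075). With summed counts the differences in alveolar macrophages were smaller for Ctsk (0.38), Ctsl (0.27), Ctsb (0.095), Ctsz (0.076) and Cst3 (0.10), and without F3 for Ctsk (0.44). The median over the members' pairs was -0.13 with a pseudocount of 0.1, -0.038 with summed counts, -0.024 with the filter at 1% of cells and -0.020 with no filter, with 61.7% to 67.9% of pairs below 0 in these. The block changed no other call of a member. For Ctsh in AT2 cells the difference ran from -0.71 to -0.28 under 14 alternatives. This is a description only, since the members were picked in part for that direction.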
